A study of Mus musculus with 8 samples.

Results

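The liver libraries of mice given bisphenol A (BPA) alone or Korean red ginseng (KRG) alone were set against the liver libraries of mice given neither or both. This is the interaction contrast of the layout, and it uses 4 of the 8 samples of the series. The other 4 are uteri of the same treatments. Genes were described where both single treatments lay on the same side of both other libraries. All mice were female, of the outbred CD-1 stock, ovariectomized at 6 weeks of age and left for 1 week, so the controls lacked ovaries too. Dosing was oral for 7 days, with BPA at 200 mg/kg/day, with KRG at 1.2 g/kg/day, with the 2 together, or with neither (control). BPA is a building block of plastics with weak estrogen-like action, and KRG is a steamed and dried ginseng root. Each treatment holds 1 liver library, made from 500 ng of total RNA by QuantSeq, which reads the 3′ end of transcripts. Whether animals were pooled for a library is not stated in the labels, nor is the hour of collection or of the last meal.

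Liver genes of energy balance answer to opposing signals. In fasting, glucocorticoids and glucagon raise genes of glucose output and fat use, and falling insulin releases the transcription factor FOXO1 from inhibition. In feeding, insulin raises lipogenic genes such as Srebf1. Growth hormone acts on hepatocytes through the kinase JAK2 and the factor STAT5, which induces the feedback inhibitors Cish and Socs2 and represses Bcl6. Bcl6 encodes a transcriptional repressor that can occupy STAT5 sites, and the rhythm of growth hormone sets much of the sex bias of liver expression. Retinoic acid, made from vitamin A, induces Cyp26a1, whose product degrades it.

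The unit is CPM, read counts made comparable between libraries by scaling. A run of 4 values gives the control liver first, then BPA alone, KRG alone and the combination. The contrast of a gene is the mean of the single-treatment libraries minus the mean of the other 2 after log2(CPM + 1), a scale on which changes of low genes look smaller than they are. A gene was counted when the 2 pairs of libraries did not overlap and the contrast was at least 2-fold. With 1 library per treatment there is no replicate check, and the single-treatment livers are not replicates of each other. The smallest p-value that an exact two-sided permutation of 2 libraries against 2 allows is 0.333, so no exact test was run on single genes. Ratios of the nearest libraries of the 2 pairs carry a 95% exact Clopper-Pearson counting interval, on CPM without the pseudocount. It covers counting error only and may be too narrow even for that, because the labels name no molecular identifiers to tell PCR copies from separate molecules.

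The regulatory sequences of 4 genes at the ends of the contrast are printed first, from the RefSeq promoter table on build GRCm38.p6. They are shown because Bcl6 stood high and Cish and Tgm1 stood low in the single-treatment livers and all 3 windows hold the STAT-type motif, and because Cyp26a1, the gene with the lowest contrast, has a repeat of nuclear receptor half-sites. Capitals mark TTCNNNGAA in the first 3 and the repeat in Cyp26a1. The Bcl6 window (chr16:23981284-23981533, minus strand, intronic in the GENCODE gene) and the Tgm1 window (chr14:55713493-55713742, minus strand) are the 250 bases before a start, and each gene has another start in the table. The Cyp26a1 window (chr19:37697558-37697807, plus strand) is likewise 250 bases, and the Cish stretch (chr9:107296659-107296678, plus strand) is the first 20 bases from its start.
Bcl6: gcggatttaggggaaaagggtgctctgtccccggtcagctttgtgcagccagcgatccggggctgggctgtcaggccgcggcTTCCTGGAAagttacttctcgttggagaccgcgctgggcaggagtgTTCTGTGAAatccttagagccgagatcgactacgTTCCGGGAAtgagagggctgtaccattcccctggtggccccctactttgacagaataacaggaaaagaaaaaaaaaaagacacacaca
Tgm1: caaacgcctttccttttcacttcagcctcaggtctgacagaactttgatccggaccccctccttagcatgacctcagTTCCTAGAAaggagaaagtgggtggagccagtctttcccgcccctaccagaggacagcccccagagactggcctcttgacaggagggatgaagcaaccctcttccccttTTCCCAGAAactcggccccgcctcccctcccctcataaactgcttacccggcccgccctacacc
Cish: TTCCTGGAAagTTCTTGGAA
Cyp26a1: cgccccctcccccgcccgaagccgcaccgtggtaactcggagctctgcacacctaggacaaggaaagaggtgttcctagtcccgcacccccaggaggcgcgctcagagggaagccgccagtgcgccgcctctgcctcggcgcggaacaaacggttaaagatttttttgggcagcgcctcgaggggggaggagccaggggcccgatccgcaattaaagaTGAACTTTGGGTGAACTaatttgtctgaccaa

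The Bcl6 window held 3 matches to TTCNNNGAA, which reads the same on both strands, and Tgm1 and Cish held 2 each. Of 32851 starts in the table, 8.30% held at least 1 match within 300 bases, 0.457% at least 2 and 0.0335% at least 3. The Cish stretch spans only its 2 matches, and for Bcl6 and Tgm1 the start with more matches was printed. These shares therefore do not measure how rare the printed stretches are. The other Bcl6 start had 1 match, and the other Tgm1 start had 0. The Cyp26a1 repeat began 32 bases before the start and reads AGTTCA on the opposite strand, repeated in the same direction with 5 bases between. The search covered both strands and also allowed the textbook half-site of nuclear receptors, which has AGGTCA, in either place. Such a repeat was present at 13 of the 32851 starts (0.0396%). The window of Lpin1 (chr12:16610967-16611216, minus strand) held neither motif, nor an E-box (CACGTG), nor a match to the forkhead motif GTAAACA. The windows of Amica1 (now Jaml) and Gm10684, the genes with the largest gaps higher, likewise held 0 matches to each of these motifs. The choice of Cish and of the motifs followed their values. Over all counted genes, 5 of the 43 higher genes in the table (11.6%) and 4 of the 26 lower ones (15.4%) had a start with TTCNNNGAA, against 9.55% of all 27025 genes. A match is a description of letters, not of binding.

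Of 6705 liver genes that passed a filter on the mean of 10 CPM, 52 were counted higher (0.776%) and 37 lower (0.552%) in the single-treatment livers. Without the size threshold, 1183 genes (17.6%) lay higher and 1068 (15.9%) lower without overlap. The median contrast of all genes was 0.00 and its SD was 0.34. With total counts in place of TMM scaling the split was 46 higher and 54 lower. Of the counted genes, 41 of 52 higher and 31 of 37 lower had a counting interval of the nearest libraries that lay wholly past 1. The rule for counting already places that ratio past 1, so these intervals describe counting error and are not separate support. The 2 nearest libraries were themselves at least 2-fold apart on the log2(CPM + 1) scale for 11 genes higher (0.164%) and 10 lower (0.149%), a stricter count added after the values were seen. Those just past and just short of the 2-fold contrast were G6pc (1.002) and Ell2 (0.995) among higher genes and Acsl3 (-1.011) and Slc16a5 (-0.997) among lower ones.

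Libraries that stand apart bear on these counts. Of the acinar pancreas markers, 6 of 10 measured members were counted higher, beside 0.776% of all genes. These 6 passed the filter only through the BPA liver, which held them at high level while the other 3 libraries were near 0. Their share therefore describes that library, not both single treatments. For each of the 6, the counting interval of the nearest libraries included equal levels, as for Prss2 (0.909 to 6.46) and Pnlip (0.321 to 3.28). Amy2a5, a pancreatic amylase, stood at 0, 457, 1.65 and 1.24 CPM, and the summed acinar level was 234, 1799, 155 and 177 CPM, most of it outside BPA from Cela1 (233, 529, 146 and 170 CPM). Of 18 acinar rows, 12 were at 0 counts in control, 0 in BPA, 2 in KRG and 5 in the combined liver. Erythroid markers had 5 of 8 measured members counted higher, beside 0.776% of all genes. They summed to 3764, 7913, 5511 and 1803 CPM, so both single-treatment livers exceeded both others. In bulk tissue a different number of red cells and a different amount of RNA per cell cannot be told apart. Hba-a1, an alpha globin, stood at 2014, 4595, 2966 and 981 CPM, and its nearest libraries, KRG and control, were 1.47-fold apart (1.45 to 1.49). Globin and amylase copies may share reads and are not separate observations. Without acinar and erythroid genes the counts were 35 higher and 37 lower, an alternative added after the values were seen. Rn45s, the ribosomal RNA precursor, also moved with the contrast, at 9.02%, 11.5%, 12.4% and 8.30% of library counts, and leaving it out before scaling, also chosen after seeing the data, gave 54 higher and 39 lower. Skeletal muscle markers summed to 207, 8.11, 579 and 5.04 CPM, with 0 of 7 measured members counted, 5 of 16 rows at 0 counts in BPA, 10 in the combined liver and 0 in the others. The part of red cells, pancreas and ribosomal RNA in the results below was not tested. Hepatocyte markers were steady, at a summed 29008 to 32221 CPM, with all 10 detected in every library.

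**Figure D1:**
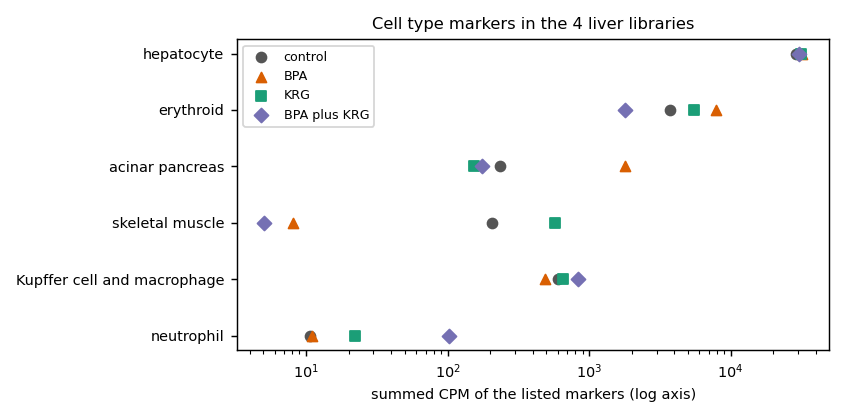
Summed CPM (log axis) of the listed markers of 6 cell types in the 4 liver libraries, 1 point per library and no error bar since each treatment has 1 library. Hepatocyte sums lie between 29008 and 32221 CPM, erythroid sums are highest with BPA and KRG alone, and acinar pancreas markers are high in the BPA liver.

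Lpin1 and Bcl6 were the genes that marked the pattern. Lpin1 (chr12:16535669-16610966, protein coding) encodes lipin 1, a phosphatidate phosphatase of triglyceride synthesis that also acts as a coactivator in fasting liver. It stood at 114 CPM in control, 387 with BPA, 509 with KRG and 82.5 with both. Both single-treatment livers were far above the other 2, and the combined liver was the lowest. The contrast was 2.18, and the nearest libraries, BPA and control, were 3.39-fold apart (95% counting interval 3.21 to 3.58). Bcl6 (chr16:23965052-23988852, protein coding) stood at 12.5, 46.5, 58.9 and 4.73 CPM. Its order was the same as for Lpin1, with KRG highest and the combined liver lowest, and the contrast was 2.60 (nearest libraries 3.70-fold apart, 3.14 to 4.38). Between the combined and the KRG liver the counts of Bcl6 were 61 and 858.

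Among the higher genes, the one with the largest gap between the pairs was Amica1 (now Jaml, chr9:45079183-45108534), an adhesion molecule of leukocytes. It stood at 2.56, 21.1, 34.5 and 4.18 CPM, with the nearest libraries 5.03-fold apart (3.74 to 6.88). Gm10684, a noncoding RNA on the opposite strand whose 3′ end overlaps that of Jaml, followed with 1.73, 14.2, 25.5 and 2.79 CPM. Without knowledge of strand in the counting, reads of these neighbours cannot be told apart, and they may be 1 observation. T and NK cell markers summed to less than 8 CPM in each liver, and 0 of the 14 listed genes passed the filter.

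Signalling and transport genes filled the next ranks. Rgs16, a regulator of G protein signalling, stood at 47.9, 211, 144 and 51.0 CPM, with the control and combined livers nearly equal. Arrdc2, an alpha-arrestin, was at 13.3, 36.4, 56.1 and 13.3 CPM. Mfsd2a, a transporter of lysophospholipids that fasting raises in liver, stood at 60.8, 158, 168 and 58.8 CPM, and its nearest libraries were 2.60-fold apart (2.41 to 2.81). Values within each pair differed far less than values between pairs for Mfsd2a and for the potassium channel Kcnk5 (74.5, 168, 171 and 56.7 CPM). Fam25c (30.9, 106, 72.8 and 17.7 CPM), 1810011O10Rik (now Tcim; 28.2, 82.3, 78.9 and 36.9 CPM), Slc35g1 and Rasgef1b completed the 12 largest gaps.

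**Figure D2:**
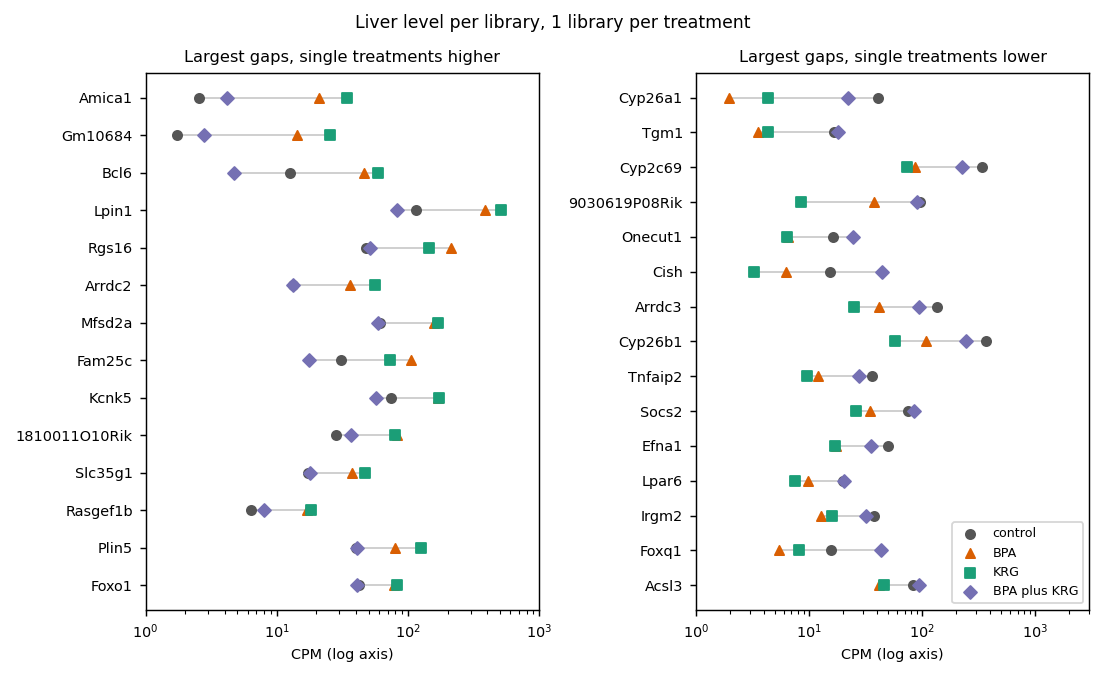
CPM per liver library (log axis) of 14 of the 15 genes with the largest gap higher (left) and the 15 lower (right) in the single-treatment livers, 1 point per library joined by a line over the range, with no error bar since each treatment has 1 library. BPA and KRG points lie together on one side for all 29 genes, which the choice of genes fixes.

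The fasting and glucocorticoid list had 6 of 28 measured members counted higher (beside 0.776% of all genes) and 0 lower, with a median contrast of 0.55 beside 0.00 for all genes. On any size, 13 members lay higher without overlap and 0 lower, beside the 17.6% and 15.9% of all genes. Besides Lpin1 and Bcl6, which were given as markers of this contrast, the counted members were Ddit4, Plin5, Angptl4 and G6pc. Members of this and the other lists were chosen with earlier results of these data known. The counts are therefore a description and not independent support. Plin5, a coat protein of lipid droplets, stood at 40.2, 80.0, 125 and 40.9 CPM, with the control and combined livers equal within 2 CPM. Angptl4, a secreted inhibitor of lipoprotein lipase, was at 112, 206, 194 and 72.1 CPM (nearest libraries 1.72-fold apart, 1.62 to 1.83). G6pc, the enzyme that releases free glucose from hepatocytes, stood at 43.5, 72.8, 71.9 and 29.1 CPM. Ddit4, an inhibitor of mTORC1, differed in shape, at 10.9, 72.1, 52.0 and 39.6 CPM, since the combined liver stayed above control.

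Some regulators on this list lay on the same side at smaller size. Foxo1 stood at 42.1, 78.1, 82.9 and 41.1 CPM, a contrast of 0.93. Ppargc1a, the coactivator PGC-1 alpha, was at 10.7, 20.4, 26.1 and 12.1 CPM, and Tsc22d3, a glucocorticoid-induced gene, at 101, 223, 244 and 143 CPM. Contrasts were smaller for further regulators: Sgk1 (-0.01), Trib1 (0.02), Klf9 (0.17), Dusp1 (0.17) and Gadd45g (-0.19). Other members did not follow: Pck1, the gluconeogenic enzyme, stood at 2006, 1204, 2241 and 1156 CPM, Igfbp1 at 67.7, 145, 51.8 and 177 CPM, and Tat at 125, 116, 142 and 115 CPM. Pck1 and Igfbp1 separated the libraries by BPA rather than by single treatment.

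Glycolysis and glycogen genes had 2 of 15 measured members counted higher (beside 0.776% of all genes) and 0 lower, with a median of 0.49. At any size 9 lay higher and 2 lower, beside 17.6% and 15.9% of all genes. Pfkfb3, which sets the level of an activator of glycolysis, stood at 10.4, 21.2, 19.6 and 5.19 CPM. Ppp1r3g, a glycogen-targeting phosphatase subunit, stood at 16.6, 69.2, 45.4 and 38.8 CPM, so the nearest libraries were only 1.17-fold apart (1.04 to 1.32). Khk, which phosphorylates fructose, stood at 387 CPM in control, 605 with BPA, 618 with KRG and 391 with both.

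Insulin and FOXO targets split, with 2 of 21 measured members counted higher, Bcl6 and G6pc, and 2 lower, Onecut1 and Srebf1. Of all genes 0.776% were counted higher and 0.552% lower. At any size 8 members lay higher and 5 lower, beside 17.6% and 15.9% of all genes, and the median was 0.11. Srebf1, which drives lipogenic genes under insulin, stood at 72.9, 19.7, 46.1 and 92.4 CPM. Its lipogenic targets did not share that pattern: Fasn stood at 539, 693, 400 and 500.03 CPM and Acly at 230, 220, 214 and 165 CPM. The fatty acid and triglyceride synthesis list had 1 of 20 measured members counted higher, Lpin1, and 1 lower, Srebf1, with a median of 0.13. Cholesterol synthesis had 0 of 25 counted and a median of -0.25. At any size 0 of the 25 lay higher and 4 lower, the latter near the 15.9% of all genes.

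Among fatty acid oxidation and PPAR-alpha targets 3 of 27 measured members were counted higher and 0 lower, beside 0.776% and 0.552% of all genes. The 3 were Cyp4a14, Plin5 and Angptl4, and the list median was 0.15. At any size 11 lay higher and 1 lower, beside 17.6% and 15.9% of all genes. Cyp4a14, a fatty acid hydroxylase, stood at 886, 1809, 1246 and 179 CPM, a contrast of 1.91 that came mostly from the low combined liver. Its nearest libraries, KRG and control, were 1.41-fold apart (1.38 to 1.44), and its Cyp4a copies may share reads. Core enzymes of oxidation differed less, with Acadl at 267, 280, 244 and 230 CPM and Cpt1a, the gate of mitochondrial import, at 116, 112, 124 and 82.9 CPM.

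Of 14 measured members of the growth hormone and STAT5 list, 3 were counted lower, Cish, Socs2 and Onecut1, and 1 higher, Bcl6, beside 0.552% and 0.776% of all genes, and the median was -0.47. At any size 9 lay lower and 2 higher, beside 15.9% and 17.6% of all genes. Cish, the STAT5-induced inhibitor whose start is printed above, stood at 15.5 CPM in control, 6.23 with BPA, 3.30 with KRG and 44.6 with both. The combined liver held the most, and the nearest libraries, control and BPA, were 2.49-fold apart (1.92 to 3.26). Socs2, another such inhibitor, stood at 75.0, 34.3, 25.8 and 84.3 CPM (nearest libraries 2.19-fold apart). Onecut1, a hepatocyte transcription factor that growth hormone induces, was at 16.3, 6.55, 6.39 and 24.3 CPM. Cish and Socs2 thus ran opposite to Bcl6 in the order of the libraries: combined highest and KRG lowest against KRG highest and combined lowest.

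The receptor, its factor and secreted products were not counted, although each gene given here lay lower without overlap. Ghr, the growth hormone receptor, stood at 219, 182, 177 and 201 CPM, and Stat5b at 64.5, 42.9, 53.0 and 60.6 CPM. Igf1, the main secreted product, was at 1329, 1123, 1002 and 1254 CPM, a contrast of only -0.28. Igfals, which binds IGF complexes in serum, stood at 496, 457, 272 and 562 CPM, a contrast of -0.58.

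Of the female-biased genes 8 of 25 measured members were counted lower (beside 0.552% of all genes) and 0 higher. With total count scaling 12 of 25 were counted lower, beside 54 of all 6705 genes. At any size 16 lay lower and 0 higher, beside 15.9% and 17.6% of all genes, and the median was -0.92. The list summed to 5600, 2144, 4704 and 4847 CPM, so the summed level was low mainly with BPA, while KRG was close to the combined liver. Cyp2c69, a cytochrome P450, stood at 336, 86.4, 73.1 and 223 CPM, low in both single-treatment livers alike (nearest libraries 2.59-fold apart, 2.41 to 2.78). Abcd2, a peroxisomal transporter, was at 24.4, 7.87, 14.4 and 31.8 CPM, and the organic anion transporter relative Slc22a26 at 55.1, 12.5, 34.8 and 55.6 CPM. Cyp2a4 stood at 365, 57.5, 192 and 259 CPM, and the sulfotransferase Sult2a2 at 61.8, 11.4, 53.5 and 169 CPM, both lowest with BPA. Sult2a and Cyp2c copies may share reads. Cux2, a female-specific repressor, was below the filter at 6.72, 2.21, 2.47 and 9.84 CPM. Male-biased genes had 0 of 15 measured members counted, 3 higher and 0 lower at any size, and a median of 0.31.

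**Figure D3:**
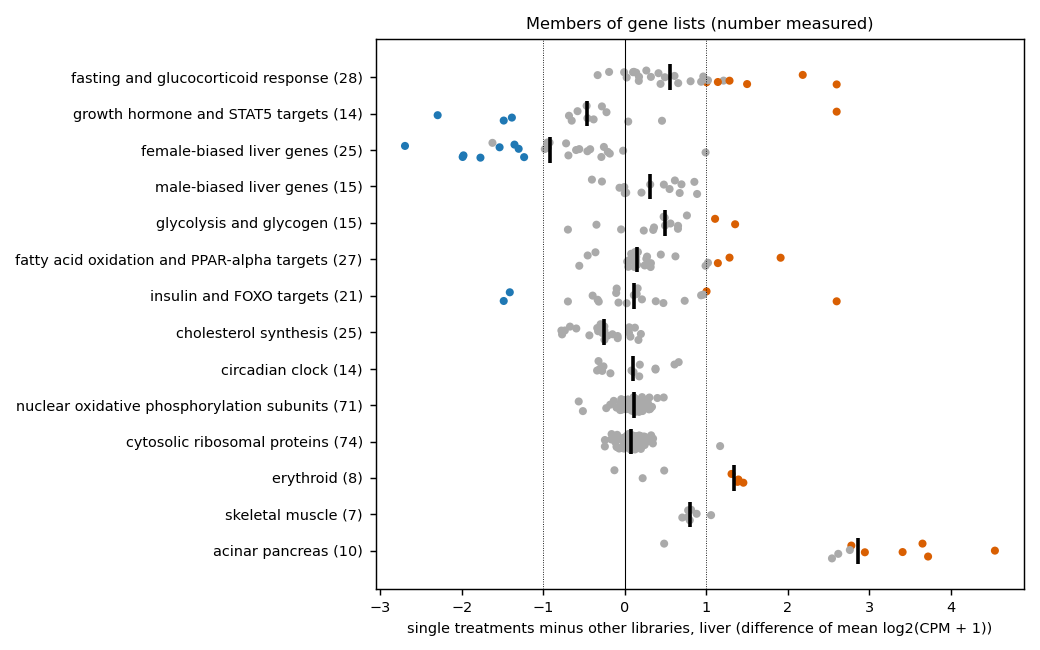
Contrast of each measured list member in liver (x axis, difference of mean log2(CPM + 1), single treatments minus other libraries), with orange for counted higher, blue for counted lower, grey for the rest, a black bar at the list median and dotted lines at 2-fold. Fasting and glucocorticoid genes have a median of 0.55 and female-biased genes one of -0.92, while erythroid and acinar markers have 1.34 and 2.86. The counted acinar markers are high in the BPA liver only.

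The retinoic acid hydroxylases Cyp26a1 and Cyp26b1 were among the genes counted lower. Cyp26a1 (chr19:37697798-37701536) stood at 40.4 CPM in control, 1.97 with BPA, 4.40 with KRG and 22.2 with both. It had the lowest contrast of all 6705 genes, -2.95, and its nearest libraries were 5.06-fold apart (3.85 to 6.74). Cyp26b1, its relative, stood at 370.2, 109, 57.7 and 244 CPM (nearest libraries 2.24-fold apart). In both genes the combined liver stood between control and the single treatments. Rarb, the retinoic acid receptor that retinoic acid itself induces, was below the filter at 7.75, 1.97, 2.68 and 6.51 CPM. Lrat, which stores retinol as esters, stood at 29.1, 10.3, 16.1 and 23.3 CPM. In a retinoid list put together after these values were seen, 2 of 17 measured members were counted lower and 0 higher. Of all genes 0.552% were counted lower and 0.776% higher. At any size 5 members lay lower and 4 higher, beside 15.9% and 17.6% of all genes, and the median was -0.04. Rxra (475, 482, 475 and 464 CPM) and Dhrs3 (73.5, 84.3, 77.2 and 86.9 CPM) were level, and Aldh1a1, which makes retinoic acid, lay higher at 769, 1361, 816 and 576 CPM. Lrat is also a stellate cell gene, and the stellate and fibroblast list summed to 831, 655, 754 and 640 CPM with 0 of 10 measured members counted.

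Other genes with large gaps lower served varied functions. Tgm1, a transglutaminase, stood at 16.6, 3.52, 4.33 and 18.1 CPM (nearest libraries 3.83-fold apart). Arrdc3, an alpha-arrestin like Arrdc2 but on the other side, was at 136, 41.5, 25.3 and 94.4 CPM. The pseudogene 9030619P08Rik stood at 96.7, 37.9, 8.59 and 89.8 CPM. Tnfaip2, the ephrin Efna1, the lysophosphatidic acid receptor Lpar6, the interferon-induced GTPase Irgm2, the forkhead factor Foxq1 and the acyl-CoA synthetase Acsl3 completed the 15 largest gaps, with contrasts from -1.83 (Foxq1) to -1.01 (Acsl3). Foxq1 resembled Cish in that the combined liver exceeded control (15.8, 5.41, 8.18 and 43.2 CPM). Ccnd1, cyclin D1, stood at 353, 53.0, 81.4 and 117 CPM. It was the counted member among 6 measured cell cycle genes, beside 0.552% of all genes counted lower.

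Clock genes, whose level follows the hour of the day, had 0 of 14 measured members counted. At any size 4 lay higher and 3 lower, beside 17.6% and 15.9% of all genes, and the median was 0.09. Per1, which glucocorticoids also induce, stood at 33.5, 48.0, 45.5 and 27.4 CPM, a contrast of 0.61. Per2 was at 29.7, 18.1, 23.4 and 21.3 CPM with overlap, Dbp at 145, 101, 112 and 124 CPM, Nr1d1 at 15.1, 13.0, 11.1 and 16.0 CPM and Ciart at 12.7, 10.9, 15.3 and 7.44 CPM. Arntl and Npas2 were below the filter, at under 1 CPM in all 4 livers. The hour and the last meal are not in the labels, and their part was not tested.

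Under TMM scaling, nuclear subunits of oxidative phosphorylation had 34 of 71 measured members higher and 1 lower without overlap, with 0 counted and a median of 0.11, and cytosolic ribosomal proteins had 24 of 74 higher and 2 lower, 0 counted and a median of 0.07, beside 17.6% higher and 15.9% lower of all genes. With total count scaling the counts were 16 higher and 3 lower for the first list and 7 and 7 for the second. Of all 6705 genes, 628 lay higher and 1777 lower without overlap under that scaling. The medians were then 0.02 and -0.02, so the sign of the ribosomal median depended on the scaling, unlike that of the other lists given with a median, and all genes had a median of -0.08. Macrophage markers had 0 of 7 counted and 3 lower without overlap, and summed to 601, 489, 659 and 837 CPM. Neutrophil markers summed to 10.8, 11.0, 22.1 and 103 CPM, with 0 of 2 counted.

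The other 2 contrasts of the same 4 livers were counted by the same rule. They share all libraries with the contrast described, so the counts are given side by side only. Livers with BPA against livers without it gave 23 genes higher (0.343%) and 29 lower (0.433%), and livers with KRG against those without gave 20 higher (0.298%) and 47 lower (0.701%). The 89 genes that set single treatments apart thus stand beside 52 for BPA and 67 for KRG. Without acinar and erythroid genes the 3 totals were 72, 49 and 66. By the stricter rule, with the nearest libraries 2-fold apart on the log2(CPM + 1) scale, they were 11 higher and 10 lower for single treatments, 7 and 12 for BPA, and 7 and 24 for KRG. The SD of the contrast over genes was 0.34, 0.36 and 0.32.

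**Figure D4:**
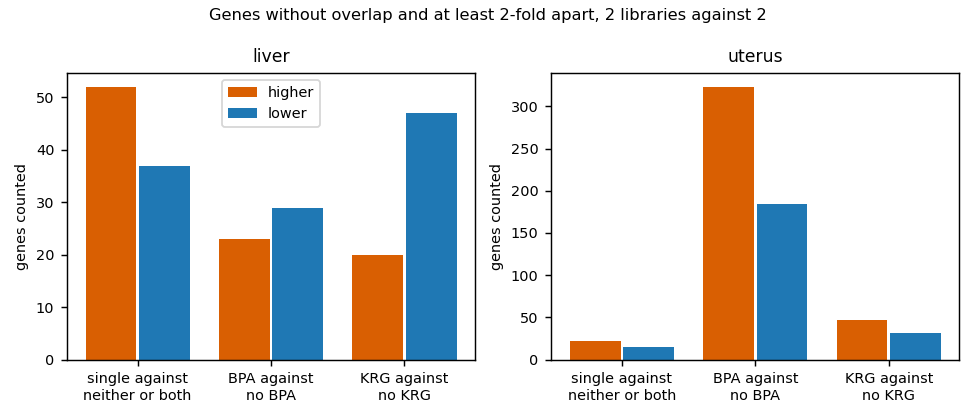
Number of genes (bars from 0) without overlap and at least 2-fold apart between 2 libraries and 2 libraries, orange for higher and blue for lower, for the 3 contrasts of the 4 livers (left) and the 4 uteri (right), whose vertical scales differ. In liver the single-treatment contrast has 52 and 37 genes, and in uterus 22 and 15 beside 323 and 184 for BPA.

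The pattern within counted genes was not uniform. In 27 of the 52 higher genes and 16 of the 37 lower ones both single treatments were at least 2-fold from control. The combined liver was within 1.5-fold of control for 26 of the higher genes and 23 of the lower ones. It lay below control for 25 of the 52 higher genes, as in Lpin1 and Bcl6, and above control for 20 of the 37 lower ones, as in Cish and Socs2. Pctp, a phosphatidylcholine carrier, and Gm4788 were counted through a low control alone, at 2.88, 42.4, 56.6 and 32.3 CPM and at 1.41, 66.9, 43.4 and 40.6 CPM. Car5a was counted through a low combined liver alone, at 39.7, 39.8, 40.3 and 5.58 CPM. These 3 were chosen after their values were seen, and they fall out of the stricter count.

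Fits of the single-treatment livers against the other 2 take each pair as replicates, although its members were treated differently, so differences within a pair enter as error. edgeR's quasi-likelihood test called 0 of 6705 genes (0%) at an adjusted p under 0.05, with 346 genes at an unadjusted p under 0.05, of which 179 were higher. DESeq2 called 39 genes higher (0.582%) and 29 lower (0.433%), 27 and 19 of them among the counted genes. The tools thus gave different answers, and neither has replicate libraries of a treatment to estimate error from.

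The same contrast was formed in uterus, where the libraries came from the same 4 treatments. Of 9198 uterine genes, 22 were counted higher (0.239%) and 15 lower (0.163%), and 1068 (11.6%) and 1225 (13.3%) lay higher and lower at any size. Of the 52 genes counted higher in liver, 26 were measured in uterus, and 0 of these were counted higher and 1 lower there. Of the 37 counted lower in liver, 22 were measured, and 0 were counted in either direction. Lpin1 stood at 43.7, 44.9, 175 and 45.0 CPM in uterus, so KRG alone differed from the other 3, and Bcl6 stood at 43.0, 38.6, 69.5 and 31.5 CPM, again with KRG highest. Cish (17.1, 20.4, 13.2 and 17.3 CPM) and Cyp26b1 (12.6, 44.6, 11.1 and 37.9 CPM) overlapped in uterus, the latter set apart by BPA. Per1 (44.7, 90.6, 65.6 and 34.8 CPM) and Per2 (28.4, 54.0, 79.5 and 34.0 CPM) lay higher with the single treatments in uterus, while in liver Per2 overlapped. The difference between the tissues was not tested, and whether the 2 organs of a treatment share an animal is not stated.

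**Figure D5:**
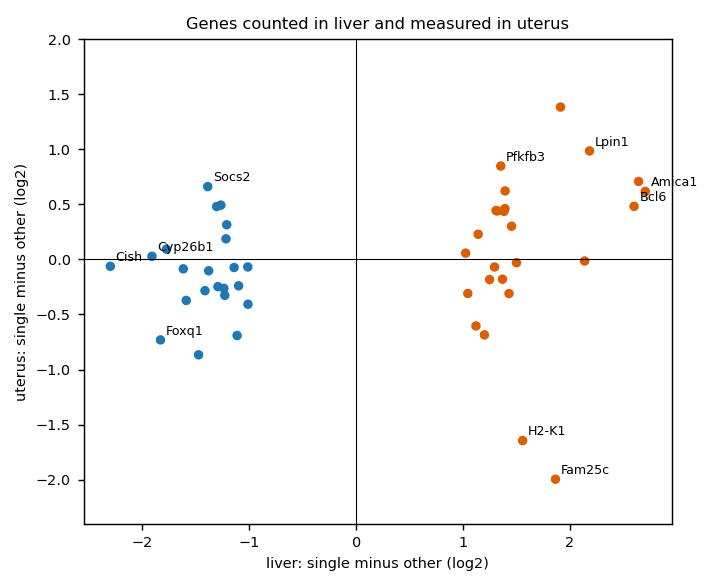
Contrast in uterus (y axis) against contrast in liver (x axis), both as single treatments minus other libraries in log2(CPM + 1), for the 48 genes counted in liver and measured in uterus, orange for higher and blue for lower in liver. Gaps along the x axis are fixed by the choice of genes, and H2-K1 lies at 1.56 in liver and -1.65 in uterus.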

How the data were processed

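Gene expression was measured by QuantSeq 3′ end sequencing in 8 libraries, and the 4 livers were analysed here with the 4 uteri beside them. The deposited files hold whole-number read counts per gene, 1 file per library, over 23282 rows named by symbol (44 repeat a symbol). Bowtie2, edgeR and the build mm10 are named in the submitters' processing notes. The counting tool is not given in the sources used here, nor is its use of strand. Liver totals ran from 12372073 to 15290950 counts, a limit on precision that the counting intervals express. Counts were scaled by TMM within tissue (edgeR 4.0.16, R 4.3.3), and genes were kept from a mean of 10 CPM upward, with a pseudocount of 1 CPM. The rule was also tried on simulated counts. These gave both libraries of a pair the same level, so that trial does not measure the error of the rule in these livers. Named genes were the 15 largest gaps in each direction, up to 4 counted members of each list with at least 2, and Lpin1, Bcl6 and clock genes. Others named are list members or were chosen after their values were seen. The members and the 43 lists were chosen with earlier results of these data known. Of these lists, 5 had 0 measured members, and lists not described had at most 1 counted member. Coordinates are from GENCODE M21, on GRCm38, the same build as mm10, and DESeq2 1.42.0 gave an alternative scaling and test. Some genes of the named ranks and lists are not reported here.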

Additional observations from a re-analysis of the deposited data

Results flagged for a closer look

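H2-K1, a class I histocompatibility gene, was counted in opposite directions in the 2 tissues. In liver it stood at 137, 572, 1057 and 507 CPM (control, BPA, KRG and both), a contrast of 1.56, and in uterus at 279.9, 82.0, 81.7 and 238 CPM, a contrast of -1.65. Both single-treatment libraries lay above the other 2 in liver and below them in uterus, although in liver the combined library was close to BPA. The difference between the tissues was not tested.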

How the results depend on the processing

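The counts of 52 genes higher and 37 lower were 53 and 36 with DESeq2 size factors, 46 and 54 with total count scaling, and 41 to 55 and 28 to 41 over the pseudocounts of 5 and 0.25 CPM. The counts were 97 and 67 with a mean of at least 1 CPM, 98 and 69 without an expression filter, 128 and 131 at a 1.5-fold contrast, and 0 and 0 by edgeR's quasi-likelihood test, with 39 and 29 by DESeq2. With the nearest libraries 2-fold apart on the log2(CPM + 1) scale, added after the data were seen, they were 11 and 10. Leaving out 1 library gave 62 to 90 genes higher and 62 to 96 lower, since fewer libraries have to be separated: 78 and 62 without control, 62 and 71 without BPA, 90 and 96 without KRG, and 69 and 66 without the combined liver. Without BPA 34 of the 52 higher genes and 25 of the 37 lower ones were still counted. All 52 named contrasts kept their sign under the 2 other scalings, the 2 other pseudocounts and each left-out library. For a gene without overlap between the pairs, a left-out library or another pseudocount cannot change the sign. Most named genes had no overlap, so their kept sign was largely fixed by the choice of genes. Of the 46 named contrasts of at least 2-fold, 36 remained so without the BPA library and 36 without the combined one. No paired analysis was possible because each treatment has 1 library. With 1 library per treatment, differences between animals, collection and treatment cannot be told apart.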

Other observations

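In uterus, H2-DMb1, which encodes a chain of a class II peptide-loading protein, stood at 90.0, 7.27, 8.47 and 54.8 CPM (control, BPA, KRG and both), and in liver at 0.512, 7.54, 17.5 and 12.9 CPM, where control was the lowest. Tap2, a peptide transporter of antigen presentation, was counted lower in liver (122, 62.1, 26.9 and 81.7 CPM) and stood at 63.2, 108, 68.4 and 58.3 CPM in uterus. These genes were chosen after their values were seen.

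Liver heat shock genes were lowest in the combined library for Hspa1b (2.94 CPM, beside 13.4 to 21.98 in the other 3) and Dnajb1 (43.3, 48.3, 64.4 and 29.0 CPM), with 0 of 15 measured members of that list counted. Cyp8b1, the sterol hydroxylase that sets the kind of bile acid made, was counted higher at 43.6, 210, 55.1 and 31.0 CPM, a difference carried by the BPA liver, while Cyp7a1 stood at 106, 122, 142 and 99.6 CPM. Etnppl, a periportal enzyme of phosphoethanolamine breakdown, stood at 50.6, 142, 107 and 58.0 CPM.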
